A study of Homo sapiens with 2 samples.

Results

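Catalase and 9 other antioxidant enzymes were followed between 2 substates of the human embryonic stem cell line H9. The 10 genes are CAT, SOD1, SOD2, GPX1, GPX4, PRDX1, PRDX2, PRDX3, TXN and TXNRD1, out of 22439 genes that could be named on the arrays, and they were read by 12 of the 58201 probes. CAT was chosen by its large fall in substate 2 in these same data. The other 9 genes were added because they share its function, with earlier results of these data already known. The difference of CAT is therefore a description that was known when it was picked.

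Both substates were H9 cells grown on Matrigel, an extracellular matrix preparation, in the defined medium TeSR-E8. Substate 1 cells were taken at passage 35 and substate 2 cells at passage 50, so passage and substate cannot be told apart. Total RNA of each substate was labelled with Cy3 and hybridised to 1 single-colour Agilent array, and both arrays lay on the same slide. With 1 array per substate no test was possible, and each difference below compares these 2 libraries without a replicate check.

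Superoxide, a by-product of respiration and of oxidases, is turned into hydrogen peroxide by superoxide dismutases. Hydrogen peroxide is then removed by catalase, a haem enzyme of peroxisomes that needs no reducing partner, or by glutathione peroxidases and peroxiredoxins, which draw their electrons from glutathione or thioredoxin and in the end from NADPH. Pluripotent stem cells rely strongly on glycolysis and keep their mitochondria immature, and their peroxide defence changes when they differentiate.

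Values are the scanner's processed signals, that is, fluorescence after background subtraction, or their log2 after subtraction of the 75th percentile of the same array, which was 313.7 for substate 1 and 275.4 for substate 2. Differences are substate 2 minus substate 1 on that log2 scale. Over the 16001 genes measured well above background on both arrays the median difference was 0.08, with quartiles at -0.16 and 0.28, and 59.8% of these genes were higher in substate 2, a share against which the counts of higher genes below are to be read. Levels of different probes are not compared, because each probe has its own brightness.

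The promoters of CAT and TXNRD1 are shown because CAT was the 1 member that was lower in substate 2 and because TXNRD1 is a known target of the antioxidant response element. Each runs from 250 bases before to 50 bases after the transcription start, 5′ to 3′ on the strand of the gene, from RefSeq on GRCh38.p14. Capitals mark matches on either strand to CCAAT (bound by NF-Y), GGGCGG (bound by SP1) or TGACNNNGC (the core of the antioxidant response element), with N any base.
CAT, chr11:34438684-34438983, plus strand: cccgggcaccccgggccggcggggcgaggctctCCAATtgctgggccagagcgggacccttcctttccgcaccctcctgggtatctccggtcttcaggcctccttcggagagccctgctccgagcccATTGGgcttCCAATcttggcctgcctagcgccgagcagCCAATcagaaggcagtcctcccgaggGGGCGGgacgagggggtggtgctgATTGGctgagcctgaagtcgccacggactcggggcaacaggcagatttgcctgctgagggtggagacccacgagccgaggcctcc
TXNRD1, chr12:104215529-104215828, plus strand: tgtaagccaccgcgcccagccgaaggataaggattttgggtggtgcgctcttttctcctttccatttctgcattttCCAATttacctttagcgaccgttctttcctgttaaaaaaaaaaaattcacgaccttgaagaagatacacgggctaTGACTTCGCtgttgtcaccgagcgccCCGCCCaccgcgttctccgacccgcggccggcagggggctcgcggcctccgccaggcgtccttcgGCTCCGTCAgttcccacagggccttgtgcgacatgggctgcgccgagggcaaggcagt

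The CAT promoter held 5 CCAAT matches, of which 3 lay on the strand of the gene and 2 on the other strand. At least 1 CCAAT match was present in 34.6% of 35116 promoters of the same length, and 5 or more in 0.359%. Among promoters of the other members the most was 3, in GPX4 and in SOD2, neither of which was lower in substate 2. Both genes have several promoter entries, and another entry of each held 0 CCAAT matches. GGGCGG was found at 1 place in the CAT promoter and at 1 or more in 45.0% of all promoters. No match in the CAT window was found for TGACNNNGC (13.3% of all promoters), TGTTTAC (a FOXO site, 3.42%), CACCTG (a ZEB1 site, 20.6%) or TATAAA (11.5%), all searched on both strands. Its GC content was 68% and it held 20 CpG dinucleotides, beside medians of 58.7% and 14 over all promoters. The TXNRD1 window held 2 TGACNNNGC matches, and a further TXNRD1 promoter, which is not printed, held 1. Which of these, if any, is the element known for TXNRD1 was not examined. None of the promoters of the other members with an entry had that match. Entries were found for 8 of the 10 members, and SOD1 and PRDX1 had none. These matches are letters in a window and do not show that a factor binds there.

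CAT encodes catalase. Its 1 probe was printed at 10 places on each array, more than any other member. Processed signals of the 10 spots ran from 188.6 to 217.5 with a median of 203.3 on the substate 1 array, and from 20.2 to 34.8 with a median of 31.1 on the substate 2 array. Every spot of substate 1 was thus brighter than every spot of substate 2, and the dimmest spot of substate 1 was 5.41-fold brighter than the brightest of substate 2, before the arrays were scaled. All 10 spots of substate 1 and 9 of the 10 spots of substate 2 were well above background. The spot that was not had a signal of 20.2 and was also marked as an outlier by the scanner software, as was the spot at the same position on the substate 1 array with a signal of 198.8. Both were left out of the means.

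**Figure D1:**
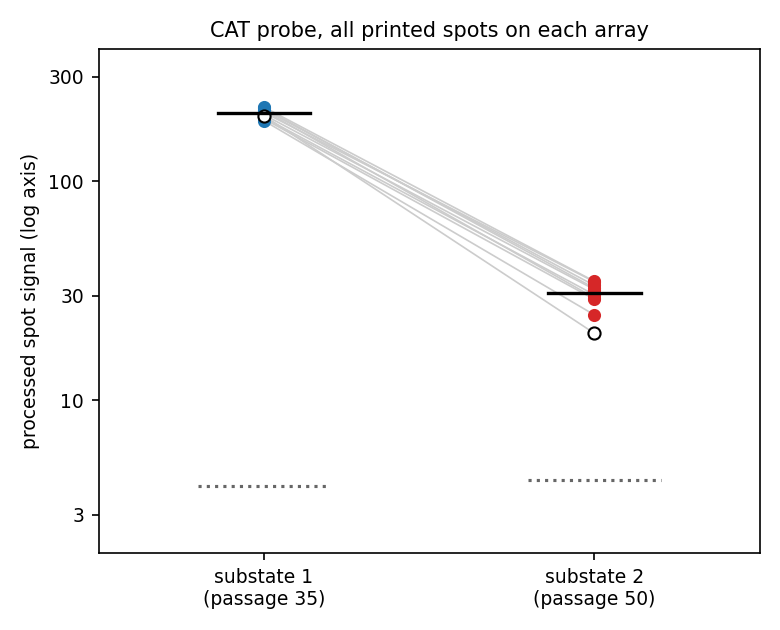
Processed signal of the CAT probe at its 10 printed spots on the substate 1 and substate 2 arrays, on a log axis. Grey lines join spots at the same position, open circles are outlier spots, black bars are the geometric means of the other 9 spots and dotted lines are the 95th percentile of the 308 negative control spots (4.03 and 4.31). The spots lie between 188.6 and 217.5 on the substate 1 array and between 20.2 and 34.8 on the substate 2 array, without overlap.

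On the log2 scale CAT was -0.62 ± 0.07 in substate 1 and -3.15 ± 0.16 in substate 2 (SD over 9 spots of 1 array each). The difference was -2.53, which is 5.78-fold lower in substate 2, with a standard error of 0.06 from the spots. That error reflects how evenly 1 array was printed and hybridised, and it holds no variation of cultures, RNA or labelling. Spot by spot at the same position, outliers included, the difference ran from -3.11 to -2.38. The contrast was also present before any background was subtracted. The median raw fluorescence of the spots was 248.25 in substate 1 and 89 in substate 2, over local backgrounds of 36 and 37.

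CAT was dim in substate 2, though 9 of its 10 spots were well above background. No negative control spot of substate 1 and 1 of the 308 of substate 2 was brighter than the dimmest CAT spot of its array. That 1 control spot had a signal of 33.5, which was also above the median of the CAT spots of substate 2 (31.1). The 95th percentile of the negative control spots there was 4.31. The size of the difference depended on the background correction. With normexp, which corrects the median spot signals anew and adds an offset of 50 that compresses dim signals, CAT differed by -1.29, or 2.45-fold. Under all other settings that gave a value the difference was -2.59 to -2.49. Those settings all start from the scanner's own background subtraction, so their likeness does not show that the size holds under another one. The parts of the offset and of the background in the normexp value were not told apart. Under each setting CAT was lower in substate 2.

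Among the 16001 genes measured on both arrays CAT had the second lowest difference, and among the 29883 probes measured on both arrays as well. With normexp it was the gene of rank 12 from the lowest. The gene below it was XIST, the RNA that silences an X chromosome. Of the 300 probes printed at 10 places 291 were measured on both arrays, with a median difference of 0.13 and a range up to 1.51. CAT was the lowest of these, and the next was CDH1 (E-cadherin) at -1.47. Next in size stood 5 genes with 1 probe each, named because their differences were nearest to that of CAT over these 2 arrays. They were ECEL1P2 at -2.17, CUZD1 at -2.15, ZFP57 (a factor that maintains imprinted methylation) at -2.14, CLEC4GP1 at -1.89 and, between the last pair, PURPL (a long noncoding RNA that restrains p53), with log2 signals of -0.54 in substate 1 and -2.54 in substate 2. A gap of 0.36 on the log2 scale lay between CAT and the nearest of them.

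Sizes were judged by a Z-score, after the study's methods, and by a 2-fold rule. The Z-score counts how many SDs (0.63) a probe's difference lies from the mean over all probes (0.07). Its limits of -2 and 2 correspond to 2.29-fold lower and 2.53-fold higher. Of the 12 member probes, 1 lay past a limit, that of CAT with a Z-score of -4.11, which ran from -7.44 to -2.45 over the settings. Among all measured probes 0.622% lay at or below -2 and 0.355% at or above 2. Of the 10 member genes, 1 was lower by 2-fold or more and none was higher by that much, beside 1.07% and 0.931% of all measured genes. Since CAT was picked from this contrast, nothing is read from its count.

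**Figure D2:**
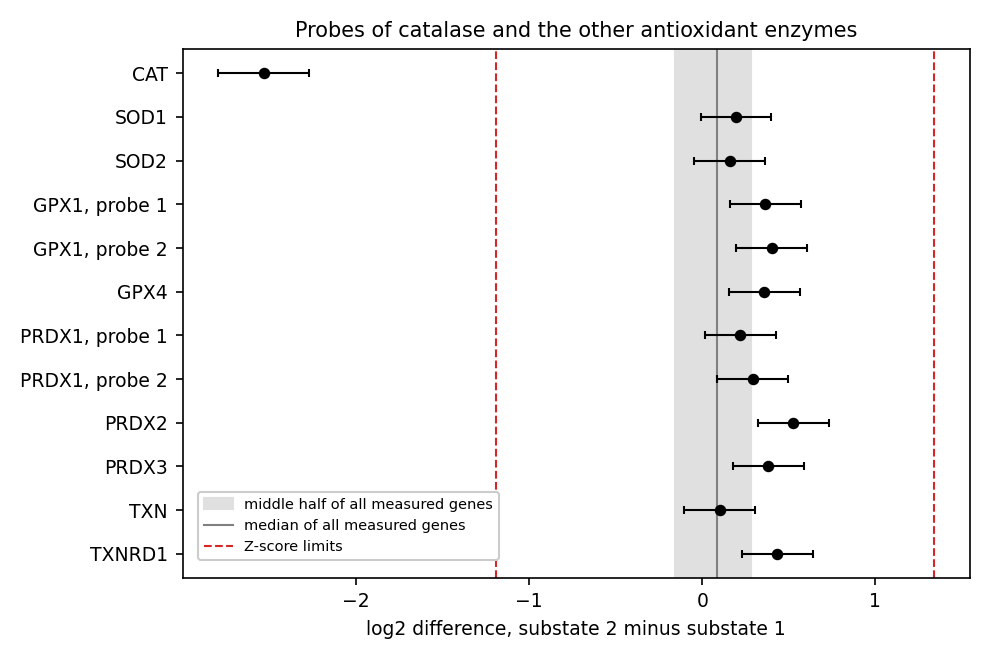
Log2 difference, substate 2 minus substate 1, of the 12 member probes. Bars are the error of the difference, calculated from the errors that the scanner software gives for each signal (0.20 to 0.26). The CAT probe lies at -2.53, left of the lower Z-score limit, and the 11 other probes lie between 0.10 and 0.53, where SOD1 and TXN turn slightly negative under quantile normalisation and loess centring.

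The 9 other members were all measured on both arrays, each by probes with 1 spot per array. All 9 were higher in substate 2, by 1.07-fold to 1.44-fold and above the median of all genes, but SOD1 and TXN turned slightly negative under quantile normalisation and under loess centring on signal. The median difference of the 9 was 0.36, and became 0.20 under quantile normalisation and 0.19 under loess centring. Their Z-scores ran from 0.05 to 0.72, so none came near a limit. The scanner software gives an error of about 10% for each signal of these 11 probes on both arrays. The error of the difference calculated from it was 0.20 to 0.21 and so hardly differed between probes. Of the 11 differences 8 were larger than this error and 2, those of PRDX2 and TXNRD1, were more than 2 times as large. Replicated probes of like brightness had a narrower SD of the difference between spots, 0.05 to 0.10.

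Superoxide dismutases supply the hydrogen peroxide that catalase removes. SOD1, the copper and zinc enzyme of the cytosol, had a processed signal of 42164 in substate 1 and 42375 in substate 2, and a normalised log2 signal of 7.07 and 7.27. The difference of 0.20 (1.14-fold higher) was above that of 64.1% of all genes, and became -0.02 under quantile normalisation and -0.0045 under loess centring. SOD2, the manganese enzyme of mitochondria, had signals of 2370 and 2322, or 2.92 and 3.08 after normalisation. Its difference of 0.16 was 1.12-fold higher, and 59.4% of genes lay below it. The SOD2 difference became 0.07 under quantile normalisation and 0.06 under loess centring. Both processed signals were nearly level between the arrays, and it was the lower 75th percentile of the substate 2 array that placed them higher.

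GPX1 and GPX4 are glutathione peroxidases that reduce peroxides with glutathione and carry selenocysteine in their active site. GPX1, the abundant form of the cytosol, was read by 2 probes with signals of 44514 and 17899 in substate 1 and 50317 and 20745 in substate 2. These gave differences of 0.36 and 0.40, and the gene mean was 0.38 (1.30-fold higher). That mean became 0.20 under quantile normalisation and 0.19 under loess centring. The probes lay 0.04 apart, whereas the median gap over 3414 genes with 2 measured probes was 0.15. GPX4, which reduces lipid peroxides in membranes and protects cells from ferroptosis, had signals of 9226 and 10392, or 4.88 and 5.24 after normalisation. It was higher by 0.36 (1.28-fold), above 83.3% of all genes.

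Peroxiredoxins reduce hydrogen peroxide with a reactive cysteine that thioredoxin restores. PRDX1, a cytosolic form, had 2 probes with signals of 46932 and 60898 in substate 1 and 47979 and 65455 in substate 2. Their differences of 0.22 and 0.29 averaged 0.26 (1.19-fold higher). The PRDX1 mean became 0.06 under quantile normalisation and 0.05 under loess centring. PRDX2, the other main cytosolic form, showed the largest positive difference of the members as normalised by the 75th percentile. Its signal was 2772 in substate 1 and 3505 in substate 2, its log2 signal 3.14 and 3.67, and its difference 0.53 (1.44-fold higher), above 93.9% of all genes. PRDX3, the mitochondrial form, had signals of 4523 and 5177 and log2 signals of 3.85 and 4.23. It was higher by 0.38 (1.30-fold), above 85.5% of genes.

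Thioredoxin passes electrons to peroxiredoxins, and its reductase recharges it from NADPH. TXN, the cytosolic thioredoxin, had signals of 32452 in substate 1 and 30557 in substate 2, and log2 signals of 6.69 and 6.79. Its difference of 0.10 was the smallest of the 9, near the middle of all genes (52.1% lay below it), and became -0.05 under quantile normalisation and -0.09 under loess centring. TXNRD1, the cytosolic reductase and a selenoprotein, had signals of 304.9 and 361.3 and log2 signals of -0.04 and 0.39. It was higher by 0.43 (1.35-fold), above 89.4% of genes, and was the highest of the 9 under quantile normalisation at 0.42.

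**Figure D3:**
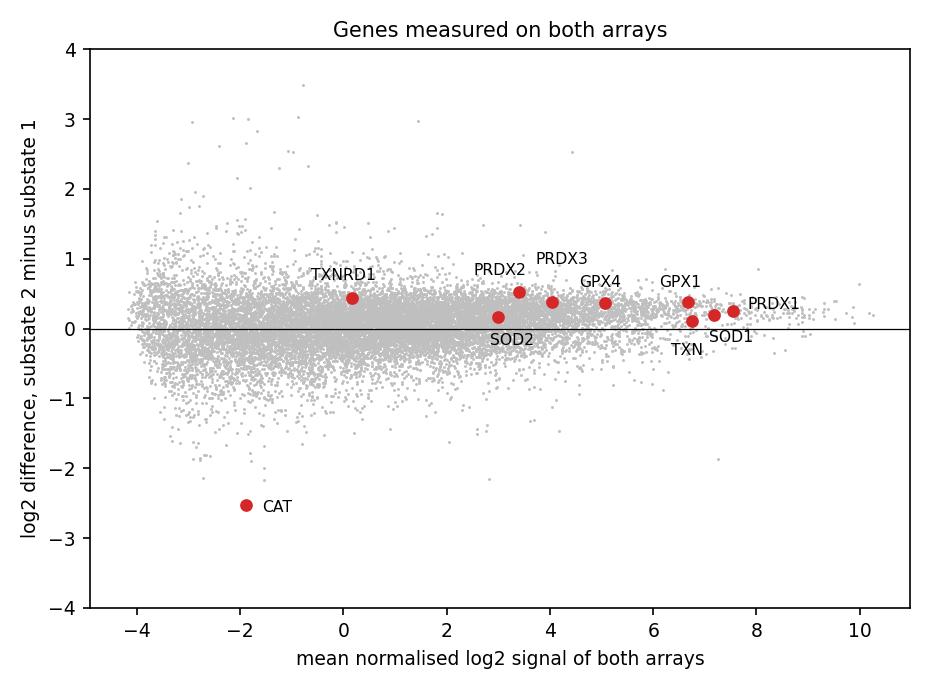
Log2 difference against mean normalised log2 signal for the genes measured on both arrays (grey), with the 10 members in red. XIST falls below the axis and is not drawn. CAT lies at a difference of -2.53 below the cloud and the 9 other members lie inside it between 0.10 and 0.53, with SOD1 and TXN just below 0 under quantile normalisation and loess centring.

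The differences of all genes drifted with signal. The loess trend at the signals of the 11 other member probes was 0.02 to 0.21. After it was subtracted, the probe differences ran from -0.09 to 0.41, and 9 of the 11 were positive. The part that brightness plays in the positive differences was not tested further.

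To place the members among genes of related work, 12 lists with 192 genes were described, of which 169 were measured on both arrays. Their median difference was 0.16, with 124 genes higher and 45 lower, and 62.7% lay above the median of all genes. The range was -0.74 to 1.11. No gene of these lists was as low as CAT, and none was lower by 2-fold or more. TXNRD2, TXNIP and GSTM3 were higher by 2-fold or more, which is 1.78% of the 169 beside 0.931% of all genes. No test of the lists was made, because genes of 1 pair of arrays are not replicates.

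Close relatives of the members came next. SOD3, the secreted dismutase, differed by -0.11 and CCS, which loads copper into SOD1, by -0.06. Of the 6 other glutathione peroxidases 5 were measured, with a median of 0.27, from GPX8 of the endoplasmic reticulum at -0.08 to GPX5 at 0.35. In the list of 3 other peroxiredoxins and sulfiredoxin (SRXN1, 0.28), PRDX4, the form of the endoplasmic reticulum, was lower by 0.40 on the log2 scale (signals of 44034 and 29214). PRDX5, found in mitochondria and peroxisomes, was higher by 0.49 (17971 and 22170).

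The other 7 genes of the thioredoxin system had the highest median of all 12 lists, 0.46, and it was 0.36 under loess centring. TXNIP, which binds and inhibits thioredoxin and lowers glucose uptake, had signals of 179.6 in substate 1 and 334.5 in substate 2, a difference of 1.08 (2.12-fold higher). TXNRD2, the mitochondrial reductase, was higher by 1.11 (2.16-fold) by a probe with signals of 25.9 and 49.1. Another TXNRD2 probe, above background only on the substate 2 array, was at least 1.59-fold higher. Its signal there was 20.3, below the brightest negative control spot of that array (33.5). TXNDC12 was at the low end with -0.22.

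The 24 genes of glutathione synthesis, reduction and transfer were all measured, 18 of them higher, beside 59.8% of all genes, with a median of 0.25. Above the median of all genes lay 17 of them. GSTM3, a transferase of the mu class, was printed at 10 places, with log2 signals of 1.42 ± 0.06 and 2.49 ± 0.05 in substates 1 and 2 (SD over spots of 1 array), a difference of 1.07 (2.10-fold higher). GSTM1, GSTM4 and GSTM2 were higher by 0.87, 0.82 and 0.60. The genes of this class are alike in sequence, and which of them each probe reads is uncertain. SLC7A11, the cystine importer that feeds glutathione synthesis, was the lowest of the list at -0.74, with signals of 3931 and 2068. The subunits of the rate-limiting ligase differed in sign, with GCLC at 0.32 and GCLM at -0.29.

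The 16 genes of NADPH supply had a median of 0.18, and ALDH1L2, a mitochondrial folate enzyme, was the lowest of them at -0.73. Of the 20 regulators and targets of NRF2, the activator of the antioxidant response, 17 were measured, 9 higher and 8 lower. Their median was 0.02, and -0.04 under loess centring. HMOX1, the inducible haem oxygenase, was at the high end with 0.38 and the transporter ABCC2 at the low end with -0.65. The probe of NFE2L2, the gene of NRF2 itself, was near background on both arrays and gave no value. For BACH1, a repressor of the same elements, 1 probe was at least 2.06-fold lower, while the gene mean over probes measured on both arrays was 0.19.

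**Figure D4:**
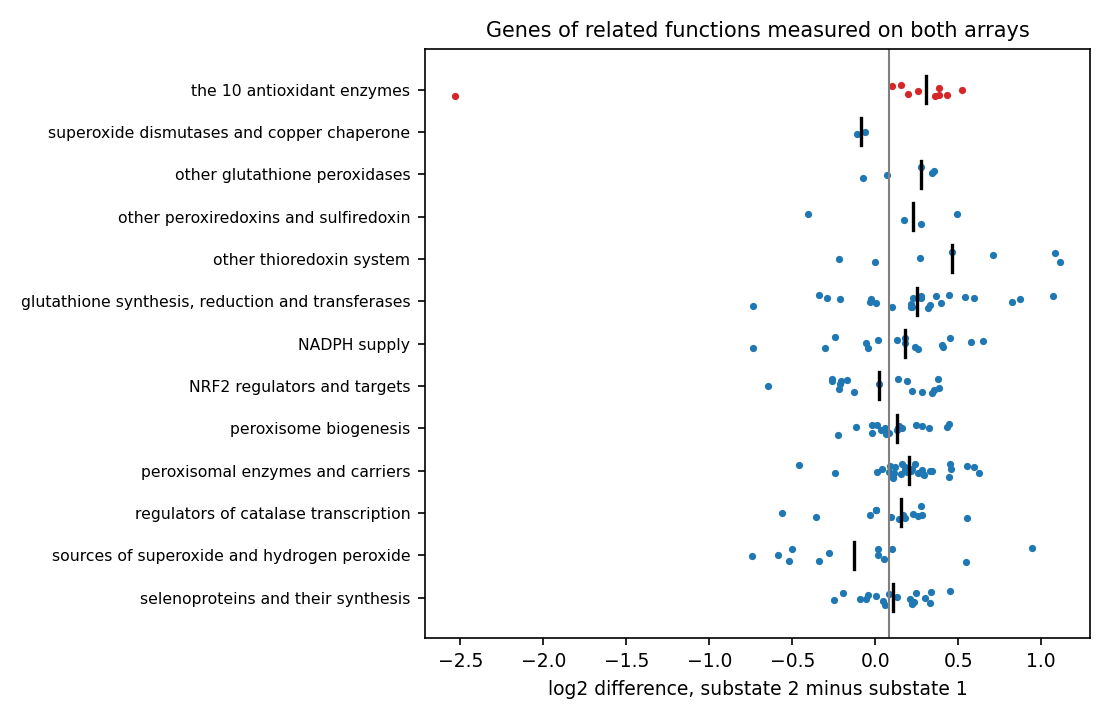
Log2 differences of the genes measured on both arrays in the 10 antioxidant enzymes (red) and in 12 lists of related genes (blue), with black bars for the median of each list and a grey line for the median of all genes (0.08). CAT at -2.53 is the only point below -1, and 3 related genes lie above 1. The median of the list of NRF2 regulators and targets, 0.02, turns to -0.04 under loess centring.

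Catalase works inside peroxisomes, so genes of that organelle were listed. All 19 genes of peroxisome biogenesis were measured, with a median of 0.13, from PEX5L at -0.22 to FIS1, a fission factor shared with mitochondria, at 0.44. PEX5, the receptor that imports peroxisomal enzymes, differed by 0.24. Of 37 peroxisomal enzymes and carriers 31 were measured, 29 higher and 2 lower, beside 59.8% of all genes higher, and their median was 0.20. Above the median of all genes lay 27 of the 31. AMACR, a racemase of branched fatty acids, was the highest at 0.63, and the transporter ABCD4 the lowest at -0.46. Over both lists 44 of 50 measured genes were higher, 6 were lower and none differed by 2-fold, where 59.8% of all genes were higher, and 38 of the 50 lay above the median of all genes. The lowest of the 50, ABCD4, had signals of 2380 and 1518.

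Of 15 regulators named for CAT transcription 14 were measured, with a median of 0.16. FOXM1 was the highest at 0.55 and PPARA, a nuclear receptor that induces peroxisomal genes, the lowest at -0.56, with its 2 probes at -0.85 and -0.28. PPARG was well above background in substate 2 only, by 1 probe, which was at least 2.34-fold higher. Its signal there was 29.8, below the brightest negative control spot of that array (33.5). The other PPARG probe was near background on both arrays. The forkhead factors FOXO1 and FOXO3, activators of CAT, did not differ by 2-fold. FOXO1 was at 0.28, and the 3 probes of FOXO3 ran from -0.04 to 0.08.

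Genes that make superoxide or hydrogen peroxide had a median of -0.13, and -0.0038 with normexp, over 12 measured of 23, with 6 higher and 6 lower. DUOX1, an oxidase that releases hydrogen peroxide, was at the low end with -0.74 and MAOB, a monoamine oxidase of mitochondria, at the high end with 0.94. For NCF1, a subunit of the phagocyte oxidase with near-identical copies in the genome, probes above background in substate 1 only were at least 1.15-fold and at least 1.22-fold lower, while another, measured on both arrays, differed by 0.02. A list of other selenoproteins and of the factors that make them had a median of 0.11 over 18 measured of 19. It ran from the selenoprotein SELENOI at -0.25 to EEFSEC, the factor that delivers selenocysteine, at 0.45.

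The neighbours of CAT on chromosome 11 were examined in the order of GRCh38.p14. Of the 5 genes on each side 4 had a probe and 2 were measured, NAT10 at 0.16 and ABTB2 at 0.91. ELF5 and EHF were near background on both arrays. Of the 5 nearest protein-coding genes on each side, an order chosen after the values were seen, 8 of 10 were measured. Their differences ran from -0.21 to 0.91 and none passed a Z-score limit, so no measured neighbour was lower along with CAT by that rule.

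The labelled cell type was checked against its markers. Of 9 pluripotency markers 7 had a named probe, and all 7 were measured on both arrays with a median difference of 0.20, while TDGF1 and ZFP42 had none. Among markers of the substates, VIM differed by 2.53 and CDH1 by -1.47. Other cell types rich in catalase are hepatocytes and red blood cells. Of 6 liver markers 5 were measured with a median of 0.34. The summed level of all 6 on the normalised linear scale was 1.37 in substate 1 and 1.68 in substate 2. That sum is over all probes and so takes in FGB, which was near background on both arrays. Of 7 red blood cell markers 5 had a probe and 3 were measured on both arrays, with a summed level of 0.66 and 0.62 over all probes. HBB was near background, and ALAS2, the haem synthesis enzyme of red cell precursors, was well above background in substate 1 alone (signals of 29.3 and 14.6) and at least 1.71-fold lower in substate 2. The part of these cell types in the difference of CAT was not tested. Of 8 fibroblast markers 4 were measured, with a median of -0.30, while COL3A1, DCN, LUM and POSTN were near background on both arrays. Their summed level over all probes was 168.1 and 153.2, but most of it came from 1 gene, THY1. Its signals were 48204 and 39218, beside 3204 and 1991 for COL1A2, the next brightest. Of 6 neural ectoderm markers 2 were measured on both arrays, NES at 0.38 and MAP2 at 1.03. POU3F2 was at least 13.3-fold and SOX1 at least 1.71-fold higher, each well above background in substate 2 only. The SOX1 signal there was 21.7, below the brightest negative control spot of that array (33.5). PAX6, by each of its probes, and ZIC1 were near background on both arrays. In RNA pooled from many cells, fewer cells that express a gene and less of its RNA per cell cannot be told apart.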

How the data were processed

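RNA of H9 cells in substate 1 and in substate 2 was measured on 1 array each, grouped by the labels. The authors deposited the scanner output with an intensity for every spot. Per the file headers, Agilent Feature Extraction version 11.5.1.1 subtracted background and removed spatial trends. A deposited series matrix holds log2 values that the authors made with a floor at a signal of 1 and a shift of every array by its 75th percentile. The number of arrays limits the precision. Of the 60901 non-control spots, 57.4% (substate 1) and 54.7% (substate 2) exceeded background clearly and none was saturated.

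Here the processed intensity was set to at least 1 and converted to log2. Without outlier spots, the mean over the spots of each probe was formed and the 75th percentile of the non-control probes was subtracted. Gene values are means over the probes well above background on both arrays. A probe well above background on 1 array is given as a bound against the higher of its own dim value and the lowest signal well above background on the dim array, written as at least N-fold. Probes were named by their RefSeq accessions, versions removed, through a RefSeq table for GRCh38.p14, which matched 31104 of 58201 probes (53.4%). The array was designed on hg19, and no probe coordinates are given. Coordinates on GRCh38.p14 are given only for the printed promoters, and that build also set the order of the neighbours of CAT.

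The named genes are the 10 members; of each related list the genes past a Z-score limit or 2-fold, and otherwise its highest and lowest; the 5 genes on either side of CAT; the 5 genes nearest to CAT in difference; and the markers. Some others were named for their role after their values were seen. The members and lists were chosen with earlier results of these data known.

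The values were recomputed with quantile normalisation, centring on the median, loess centring (span 0.3), normexp with an offset of 50 on median signals, the series matrix, outlier spots kept, no floor, other bases for the Z-score, the brightest probe of a gene and, chosen after seeing the data, the signal before spatial detrending. Python 3.11.15 with pandas 2.3.3 and statsmodels 0.14.6 and R 4.3.3 with limma 3.58.1 were used, and the scripts were tested on simulated data.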

Additional observations from a re-analysis of the deposited data

How the results depend on the processing

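Across these alternatives CAT was the only member past a Z-score limit and the only one that differed by 2-fold. Its difference was -1.29 with normexp, at rank 12 from the lowest gene. Its Z-score was -2.45 before spatial detrending, -5.96 with normexp, -6.43 over probes measured on both arrays and -7.44 with an SD from the median absolute deviation. The median over the 10 members, 0.31, became 0.13 under quantile normalisation and 0.13 under loess centring; under both, 7 of the 9 other members were positive, and under each of the other settings that gave gene values all 9 were. Of 37 values of the 4 main results 34 kept their size within the spread taken from the spots or their count. Of 81 values for single members 57 did, and 24 moved, mostly under quantile normalisation and loess centring. Naming probes by a gene name column was not run, because the scanner files used here hold none. No array could be left out. No paired analysis was possible because the substates share no pair of replicate arrays. What limits depth is signal over background, which left CAT near the dim end in substate 2 and gave no value for probes near background.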

Other observations

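Metallothioneins, small proteins that bind zinc and copper and scavenge radicals, were looked at after their values were seen. Of 12 genes with a probe 9 were measured on both arrays, 7 of them lower in substate 2, beside 40.2% of all genes, with a median difference of -0.46. MT1G was lower by 3.44-fold and MT1F by 3.13-fold, each by 1 probe, and the signals of MT1F were 317.4 and 89.0. MT2A differed by -0.50 and MT1X by -0.46, while MT3, a form known from brain, was at 0.03 and MT1A at 0.13. These genes are alike in sequence, and which of them each probe reads is uncertain.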
